A study of Mus musculus with 12 samples.

Results

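The 6 genes described here, Hpcal1, Adi1, Pqlc3, Zfp125, Gm4804 and Gm19196, lie on mouse chromosome 12 within 13.02 Mb of Rps7, the gene for a protein of the small ribosomal subunit. They were chosen by their own values, from all mutant against all control libraries of the arcuate nucleus. They are 6 of the 16640 genes measured, and all 6 were among the 15801 genes that passed the filter on low values. Their genotype differences are therefore given as a description and without a test. Diet, the dependence of the genotype difference on diet, and the sequences were not used in that choice. The surrounding genes are those left once the 6 had been taken on the same contrast, so they too are only described.

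RNA was sequenced from the microdissected arcuate nucleus (ARC), the basal hypothalamic nucleus that holds feeding and reproductive neurons, of female mice aged 27 weeks. Controls were Esr1 fl/fl, and mutants (NkxCre in the labels) carried the same loxP-flanked Esr1 allele, Esr1 tm1Sakh, together with a Cre recombinase driven by Nkx2-1. Every animal thus carried the floxed allele. The colony was kept on a mixed background of CD-1 and another strain, the one the paper gives for the floxed allele. On chow there were 3 control and 4 mutant libraries, and on a high-fat diet (HFD), given for 17 weeks, there were 2 control and 3 mutant libraries. The Cre acts in all cells with a history of Nkx2-1 expression, which is wider than the ARC. The labels do not say that each library is a separate animal, so p-values measure the spread between these libraries. Values are the authors' abundance signal. Its scaling was not stated, and it was treated here as normalised for gene length and depth, which every level set side by side between genes assumes. Depth in reads is unknown.

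The genotype labels were checked first. Esr1, the gene for oestrogen receptor alpha, had a signal of 7.29 to 19.8 in control chow and 1.65 to 6.05 in mutant chow. The 3 libraries labelled mutant HFD had 10.7, 16.6 and 11.9, inside the range of all controls (7.29 to 22.4). The Esr1 check thus goes against the label of those 3 libraries. Rps7, described below, was at 398 to 485 in the same 3, against 378 to 490 in mutant chow and 27.2 to 62.1 in all controls. Rps7 anchors the choice of the 6 genes, and whether the label is right was not tested. Nkx2-1 ran from 45.6 to 82.7 in controls and from 54.1 to 73.4 in mutants. Of 9 marker lists, for arcuate neurons and for neighbouring nuclei, pituitary and glia, all 9 had summed levels whose ranges overlapped between the genotypes. In limma, 0 of 46 tested markers passed the adjusted threshold for genotype, which 1 of all 15801 tested genes passed. An unadjusted p under 0.05 was found for 6 of the 46, against 451 of 15801 genes (2.85%). These were 3 of 11 arcuate, 2 of 5 suprachiasmatic and 1 of 3 ventromedial markers. Suprachiasmatic markers summed to 108 to 361 in controls and to 97.9 to 3067 in mutants, and their part in the results was not tested. Mutant chow replicate 3 stood apart in having 1768 genes at 0, against 201 to 1019 in the others, and values without it are given where it decides a result.

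Hpcal1 encodes a neuronal calcium sensor, one of the EF-hand proteins that bind calcium and move to membranes. Adi1 encodes acireductone dioxygenase, an enzyme of the methionine salvage pathway, which recycles the methylthio group released when polyamines are made. Pqlc3 encodes a membrane protein with PQ-loop repeats. The other 3 are annotated as pseudogenes, which are copies of genes that usually make no protein. A processed pseudogene arises from a spliced RNA and an unprocessed one from a duplicated stretch of DNA, and either may still be transcribed. Because copies resemble their sources, a short read may fit both, and an estimate of one depends on how reads are divided.

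On the GRCm38 build the genes lay in the order Gm4804 (chr12:15606412-15729095, plus strand), Pqlc3 (16988648-17000408, minus), Hpcal1 (17690856-17791933, plus), Zfp125 (20877084-20921262, minus), Gm19196 (21543307-21554521, plus), Rps7 (28630854-28635953, minus) and Adi1 (28675231-28682175, plus). The span from Gm4804 to Adi1 was 13.1 Mb. Adi1 was the nearest to Rps7, with starts 44.4 kb apart, and Nkx2-1 lay 27.8 Mb beyond Adi1. The sources used here do not say where the Nkx2-1-driven Cre is inserted, so this need not be the distance to the Cre. Zfp125 and Gm19196 are annotated as transcribed unprocessed pseudogenes and Gm4804 as a transcribed processed pseudogene. That made 3 of 6 genes pseudogenes, against 563 of 15801 (3.56%) tested genes. The span itself is rich in them, with 9 pseudogenes (21.4%) among its 42 tested genes other than the 6 and Rps7. Zfp125 overlaps 2 further annotated pseudogenes on the same strand, 3110053B16Rik and Gm10478. Strand use was not given in the sources used here, but these genes share a strand in any case.

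The sequences that the genes share with other annotated transcripts are shown because Kallisto, at its default setting, assigns reads by 31-base words. Of the 591 such words in Gm19196, 43.8% also occurred in Taf1b, a coding gene for a subunit of an RNA polymerase I initiation factor, chr12:24498359-24558539. The longest exact match ran over 3 exons of each gene and was 187 bases long. Gm4804 shared 25.9% of its words with 205 genes, 196 of them pseudogenes. Among the genes in the table it shared most with Gapdh, the glycolytic enzyme gene on chromosome 6, and equally many with the pseudogene Gm7336. Hpcal1 shared 19.7%, with 41 genes, all 41 on chromosome 12 between 17900734 and 24308251. The longest match of Hpcal1 with the pseudogene Gm49329, the gene in the table that shared most, covered the 54 coding bases shown, at chr12:17791148-17791201. Shared bases are in lower case throughout, since every base printed matches.
Gm19196 and Taf1b: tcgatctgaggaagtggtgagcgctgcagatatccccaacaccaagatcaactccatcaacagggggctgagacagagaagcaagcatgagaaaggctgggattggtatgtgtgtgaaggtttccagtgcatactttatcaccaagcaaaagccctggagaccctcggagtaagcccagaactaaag
Gm4804 and Gapdh: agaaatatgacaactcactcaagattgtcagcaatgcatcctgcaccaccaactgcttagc
Hpcal1 and Gm49329: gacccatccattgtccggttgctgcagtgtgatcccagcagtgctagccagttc

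The other genes differed widely in this property. Zfp125 shared 49.4% of its 31-base words, with 100 genes of which 44 were on chromosome 12. In addition, 549 consecutive bases were identical to the overlapping 3110053B16Rik. Both runs began at the same base, chr12:20921262, so they are at least in part the same DNA and not a separate copy. Adi1 shared 5.71%, with 12 genes of which 0 were on chromosome 12, and its longest match with Gm16505, the gene in the table that shared most, was noncoding. Pqlc3 shared 1.87%, with 1 pseudogene on chromosome 15 that was not in the table. Hpcal1 and Zfp125 had 5 sharing genes in common, all on chromosome 12. The estimates of Pqlc3 and Adi1 thus rest largely on words of their own, and those of the 3 pseudogenes rest in good part on shared ones.

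Hpcal1 was higher in each mutant library than in any control. Libraries of the control chow group gave a signal of 72.8, 71.6 and 74.9, followed by 87.3, 92.5, 121 and 106 in mutant chow, 72.5 and 61.3 in control HFD, and 138, 122 and 108 in mutant HFD. The lowest mutant library stood 12.4 above the highest control library, so the groups did not overlap. The means were 70.6 ± 5.36 (SD, n = 5) for the controls against 110 ± 17.7 (SD, n = 7) for the mutants, a ratio of 1.56. On the log2 scale of signal + 1 the difference, averaged over the diets, was 0.66 (SE 0.12). In bulk tissue, a change in the number of cells that express a gene and a change in RNA per cell cannot be told apart. Hpcal1 was the most abundant of the 6 genes, at the 89.0th percentile of tested genes by mean signal.

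Adi1 was lower in each mutant library than in any control. The signal was 70.6, 82.8 and 79.1 in control chow, 46.9, 52.4, 51.3 and 60.2 in mutant chow, 74.2 and 85.0 in control HFD, and 59.8, 56.2 and 56.4 in mutant HFD. The groups were separated by a gap of 10.3. Mean signal was 78.3 ± 5.96 (SD, n = 5) for the controls against 54.7 ± 4.83 (SD, n = 7) for the mutants, which was 69.9% of the control mean. The log2 difference was -0.51 (SE 0.11). Adi1 had the smallest spread relative to its mean of the 6 genes in the mutants, where it averaged 52.7 ± 5.56 (SD, n = 4) on chow and 57.5 ± 2.03 (SD, n = 3) on HFD.

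Pqlc3 had a lower mean in mutants, but its groups overlapped. The signal was 4.62, 11.1 and 10.1 in control chow, 6.26, 3.59, 7.62 and 5.38 in mutant chow, 14.1 and 10.1 in control HFD, and 3.66, 3.33 and 3.68 in mutant HFD. Control chow replicate 1, at 4.62, fell among the mutant values, and 4 of 7 mutant libraries were below every control. The mean was 9.99 ± 3.43 (SD, n = 5) for the controls against 4.79 ± 1.66 (SD, n = 7) for the mutants, and the log2 difference was -0.99 (SE 0.26). The mutant HFD libraries were close together, at 3.55 ± 0.198 (SD, n = 3).

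Zfp125 was low throughout and higher in most mutants. It had 1.99, 0.889 and 2.33 in control chow, 3.64, 10.3, 3.64 and 9.37 in mutant chow, 0.0588 and 0 in control HFD, and 6.48, 6.13 and 0.996 in mutant HFD. Thus 6 of 7 mutant libraries exceeded every control, and mutant HFD replicate 3 did not. The log2 difference was 1.81 (SE 0.40), and it was 1.12 (SE 0.42) when the signal was summed with that of 3110053B16Rik. That pseudogene, which shares the 549 bases, ran from 0.142 to 2.67 in controls and from 0 to 1.88 in mutants.

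Gm4804 was barely detected in controls. It was listed at 0 in all 3 control chow libraries and at 0.360 and 0 in control HFD, whereas mutant chow had 1.74, 1.65, 0 and 1.12 and mutant HFD had 1.33, 2.28 and 7.93. Of the mutants, 6 of 7 exceeded every control, and the exception was mutant chow replicate 3, the library with most genes at 0. No ratio is given against groups at 0, and the log2 difference of 1.40 (SE 0.38) depends on the pseudocount, being 3.40 (SE 0.91) with a pseudocount of 0.1. Gapdh, with which Gm4804 shares the bases shown, had 2196 ± 390 (SD, n = 5) for the controls against 2138 ± 227 (SD, n = 7) for the mutants. The Gm4804 signal was thus under 1% of the Gapdh signal, and its sum with Gapdh differed by -0.02 (SE 0.15) on the log2 scale.

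Gm19196 had 10.7, 11.3 and 4.34 in control chow and was listed at 0 in both control HFD libraries. Mutant chow had 18.8, 32.4, 0 and 14.7, and mutant HFD had 25.9, 20.3 and 23.4. All mutants but mutant chow replicate 3 exceeded every control, which again made 6 of 7. The log2 difference was 2.36 (SE 0.71) with all libraries and 2.92 (SE 0.28) without mutant chow replicate 3. Taf1b, the coding source of the 187 shared bases, had 19.7 ± 3.19 (SD, n = 5) for the controls against 17.7 ± 5.85 (SD, n = 7) for the mutants. The sum of Gm19196 and Taf1b differed by 0.61 (SE 0.17), with 0.23 (SE 0.22) on chow and 0.99 (SE 0.26) on HFD.

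**Figure D1:**
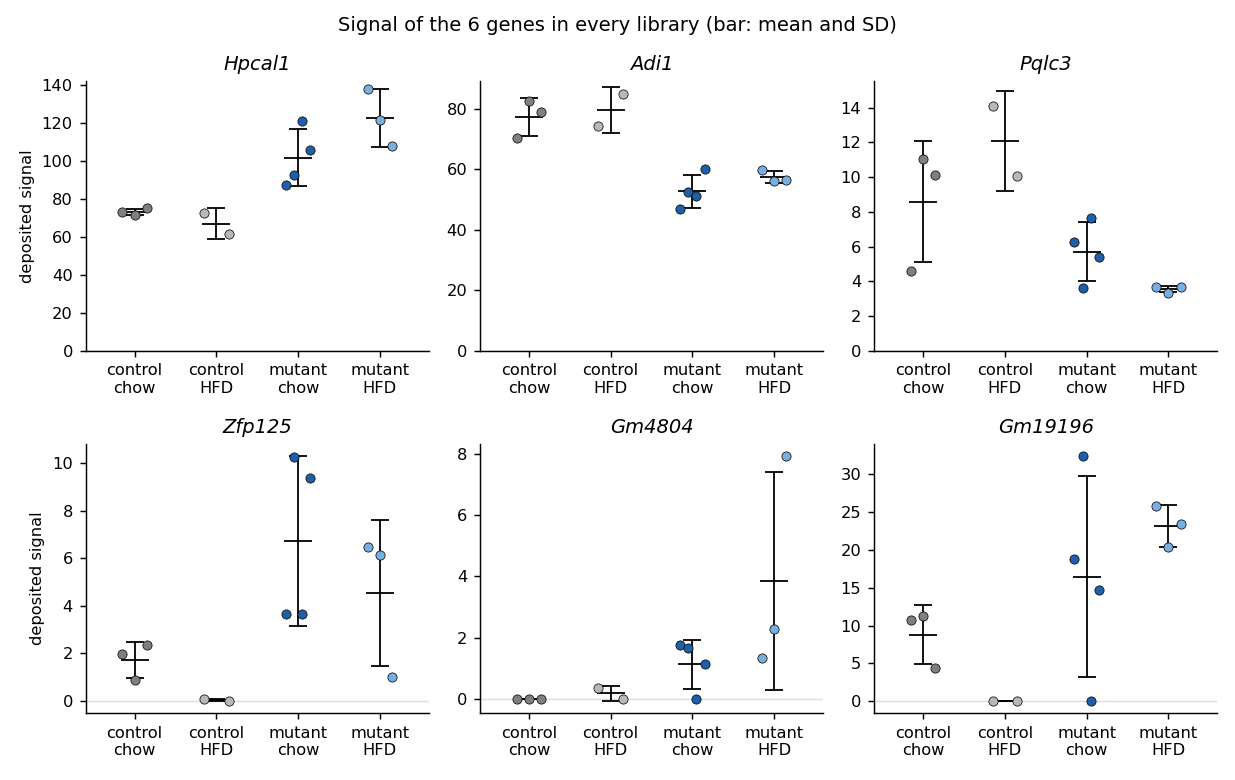
Deposited signal (y axis) of the 6 genes in each of the 12 libraries (points), by genotype and diet (x axis), with group mean and SD as bars. Hpcal1 and Adi1 separate all 7 mutants from all 5 controls, by 12.4 and 10.3, and the other 4 genes overlap.

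Read against all genes, separation of this kind was rare. Among the 15801 tested genes, 24 (0.152%) had no overlap between the 7 mutants and 5 controls, and Hpcal1, Adi1 and Rps7 were 3 of them. At least 6 of 7 mutants were above every control for 74 genes (0.468%), which included Hpcal1, Zfp125, Gm4804 and Gm19196. These shares are given for scale only, since the genes were selected on this contrast. In limma, 451 genes (2.85%) had an unadjusted p under 0.05 for genotype averaged over the diets, and 1 gene (0.00633%), Rps7, had an adjusted p under 0.05. None of the 6 genes was that gene. On chow, 3 genes (0.019%) had an adjusted p under 0.05, and on HFD 1 gene did (0.00633%), with 0 of the 6 genes among them. Ordered by unadjusted p among the 107 genes within 15 Mb of Rps7, Rps7 was rank 1 and the 6 genes held ranks 2 to 7. These ranks are largely fixed by the choice of the 6 genes. The gene just inside this group was Gm19196, with a log2 difference of 2.36, and the gene just outside was Rrm2, a subunit gene of ribonucleotide reductase, with 1.09.

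Genes next to the 6 were described in the same fit, without those chosen for their genotype difference. Of 15 nearest tested neighbours and genes within 1 Mb of Rps7, 1 had an unadjusted p under 0.05 for genotype in limma. None had an adjusted one, and 0 had separated groups. Not all were close or well expressed. Gm20472, the neighbour past Gm19196, started 1678 kb from it. Gm20472, Gm48541 and Colec11 had mean signals below 1 in both genotypes, where a difference could hardly be seen. Rnaseh1, which lies between Rps7 and Adi1 and encodes an RNase for RNA-DNA hybrids, had 17.7 ± 7.28 (SD, n = 5) for the controls against 18.9 ± 7.42 (SD, n = 7) for the mutants. Trappc12, a vesicle-tethering gene 15.4 kb past the Adi1 start, had 33.8 ± 4.73 in controls and 39.4 ± 3.55 in mutants. The neighbour with a p under 0.05 was Gm49329, whose log2 difference was -0.92 (SE 0.37), the same pseudogene that shares bases with Hpcal1. It had 4.70 to 5.79 in control HFD and 0 to 2.71 in all other libraries, against 61.3 to 138 for Hpcal1, and the sum of both differed by 0.61 (SE 0.12).

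Over the whole span from Gm4804 to Adi1, 42 tested genes other than the 6 and Rps7 were present. Of these, 3 (7.14%) had an unadjusted p under 0.05, namely Rrm2, Gm49329 and Grhl1, and 0 had an adjusted p under 0.05 or separated groups. With the 6 genes and Rps7 included the count was 10 of 49 (20.4%), and the lower count follows in part from taking them out. The median absolute log2 difference of the 42 was 0.18, against 0.13 over all genes. The span was rich in pseudogenes, with 9 of these 42 genes (21.4%). Over the whole of chromosome 12, these 42 included, 565 tested genes other than the 6 and Rps7 were present. Of these 565, 21 (3.72%) had an unadjusted p under 0.05. Within 5 Mb of Nkx2-1, which need not be the site of the Cre, the count was 2 of 46 genes (4.35%). Within 5 Mb of Esr1, on chromosome 10, it was 1 of 28 (3.57%), which was Esr1 itself.

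**Figure D2:**
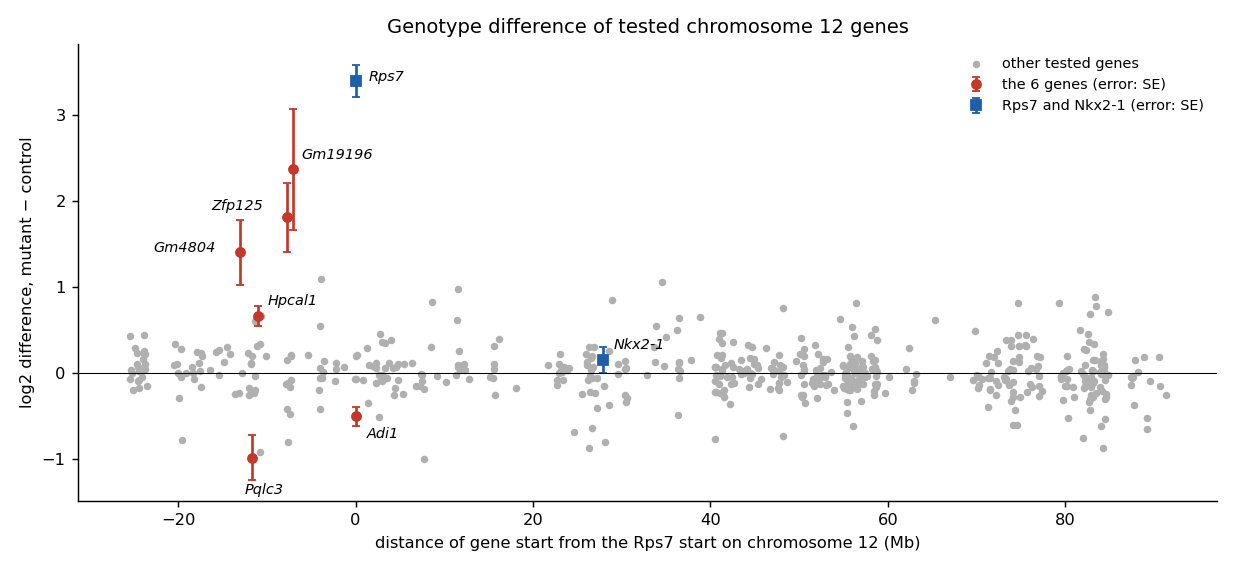
Log2 difference of signal + 1, mutant minus control averaged over the diets (y axis), of all 572 tested genes of chromosome 12 by the distance of their start from that of Rps7 (x axis, Mb), with SE for the named genes. The 6 genes lie from 13.02 Mb below Rps7 to 44.4 kb above it, with 4 above 0 and 2 below, among genes mostly near 0, and Nkx2-1 is at 0.15.

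Rps7 itself had the largest genotype difference of the region. The values were 27.2, 37.3 and 62.1 for control chow, 490.4, 378, 479 and 465 in mutant chow, 50.3 and 35.0 in control HFD, and 485, 411 and 398 in mutant HFD. Its mean was 42.4 ± 13.8 (SD, n = 5) for the controls against 444 ± 46.6 (SD, n = 7) for the mutants, a ratio of 10.5. The processed pseudogene Gm6472 on chromosome X shares 26.5% of the 31-base words of Rps7, including 493 consecutive bases, and was at 610 to 2102 in controls and at 402 to 703 in mutants. The sum of both was 661 to 2140 in controls and 870 to 1188 in mutants. Rps7 made up 1.74 to 7.61% of the sum in controls and 40.8 to 54.4% in mutants, and the log2 difference of 3.40 (SE 0.19) became -0.01 (SE 0.23) for the sum. Summed in the same way with the gene in the table that shares most words, the differences of the 6 genes were 0.61 (SE 0.12) for Hpcal1, -0.57 (SE 0.11) for Adi1, 1.12 (SE 0.42) for Zfp125, -0.02 (SE 0.15) for Gm4804 and 0.61 (SE 0.17) for Gm19196, and Pqlc3 had no such gene. The sums weigh very differently. Gm49329 (at most 5.79) and Gm16505 (at most 1.38 except for 14.98 in 1 control HFD library) are small beside Hpcal1 and Adi1, so their sums could move little, whereas Gapdh is far above Gm4804 and sets its sum.

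**Figure D3:**
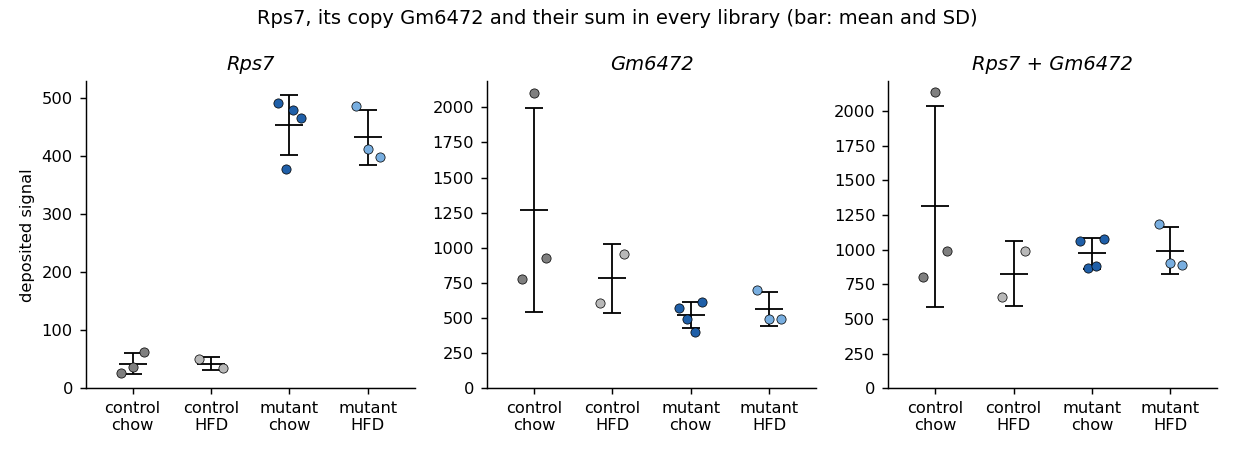
Deposited signal (y axis) of Rps7, of its copy Gm6472 and of their sum in each library (points), by group (x axis), with group mean and SD as bars. Rps7 is 27.2 to 62.1 in controls and 378 to 490.4 in mutants, while the sums overlap.

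With a pseudocount of 1, each of the 6 genotype differences had the same sign on chow as on HFD, which the choice largely fixes. On chow and HFD they were 0.46 (SE 0.15) and 0.86 (SE 0.18) for Hpcal1, and -0.55 (SE 0.14) and -0.46 (SE 0.17) for Adi1. For Pqlc3 they were -0.48 (SE 0.33) and -1.51 (SE 0.40). For Zfp125 they were 1.41 (SE 0.51) and 2.20 (SE 0.61), and for Gm4804 0.99 (SE 0.49) and 1.81 (SE 0.58). The chow difference uses none of the mutant HFD libraries, in which Esr1 was near the control level, but its SE shares their spread. Gm19196 differed most between diets, with 0.14 (SE 0.91) on chow and 4.59 (SE 1.08) on HFD, where both controls were at 0. Its chow value ran from -0.44 to 1.251 (SE 0.37) when each library was left out in turn, the lowest without mutant chow replicate 2 and the highest without mutant chow replicate 3. It was also below 0 without control chow replicate 3 and without mutant chow replicates 1 or 4, and was -0.58 (SE 1.53) with a pseudocount of 0.1, so its sign on chow was not settled.

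The dependence of the genotype difference on diet was tested for each gene, since the choice of genes did not use it. As group sizes are unequal and the fit shares 1 spread, the test is not fully independent of that choice. Gm4804 passed the filter only through mutants, with a signal of at least 1 in 6 of 7 mutant and 0 of 5 control libraries. In limma, 0 of 15801 genes (0%) had an adjusted p under 0.05 for this interaction, and 543 (3.44%) had an unadjusted one. Of the 6 genes, 1 had an unadjusted p under 0.05. That gene was Gm19196, with an interaction of 4.45 (SE 1.41, adjusted p = 0.999), and it fell to 3.34 (SE 0.56, adjusted p = 0.324) without mutant chow replicate 3 and to 0.76 (SE 0.34, adjusted p = 0.999) when summed with Taf1b. For Hpcal1 the interaction was 0.40 (95% interval -0.12 to 0.92), and for Adi1 it was 0.09 (-0.39 to 0.57). Pqlc3 had -1.03 (-2.16 to 0.09), Zfp125 had 0.79 (-0.94 to 2.53) and Gm4804 had 0.82 (-0.83 to 2.47). These intervals are wide for the low genes and do not show that the difference was equal on both diets.

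Diet itself, averaged over the genotypes, was also not used in the choice, with the same limits as for the interaction. In limma, 0 of 15801 genes (0%) had an adjusted p under 0.05, and 836 (5.29%) had an unadjusted one. Zfp125 was the 1 gene of the 6 with an unadjusted p under 0.05, at -0.98 (SE 0.40, adjusted p = 0.886), with HFD lower. That difference was -2.27 (SE 0.57) with a pseudocount of 0.1 and -0.36 (SE 0.42) summed with 3110053B16Rik. Its controls were 0.889 to 2.33 on chow and 0 to 0.0588 on HFD. Hpcal1 differed by 0.07 (95% interval -0.19 to 0.33) between the diets and Adi1 by 0.08 (-0.16 to 0.32). The values were -0.01 (-0.57 to 0.56) for Pqlc3, 0.63 (-0.19 to 1.46) for Gm4804 and -0.97 (-2.50 to 0.56) for Gm19196. Without mutant chow replicate 3 the Gm19196 value was -1.53 (SE 0.28, adjusted p = 0.341), and summed with Taf1b it was -0.12 (SE 0.17).

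**Figure D4:**
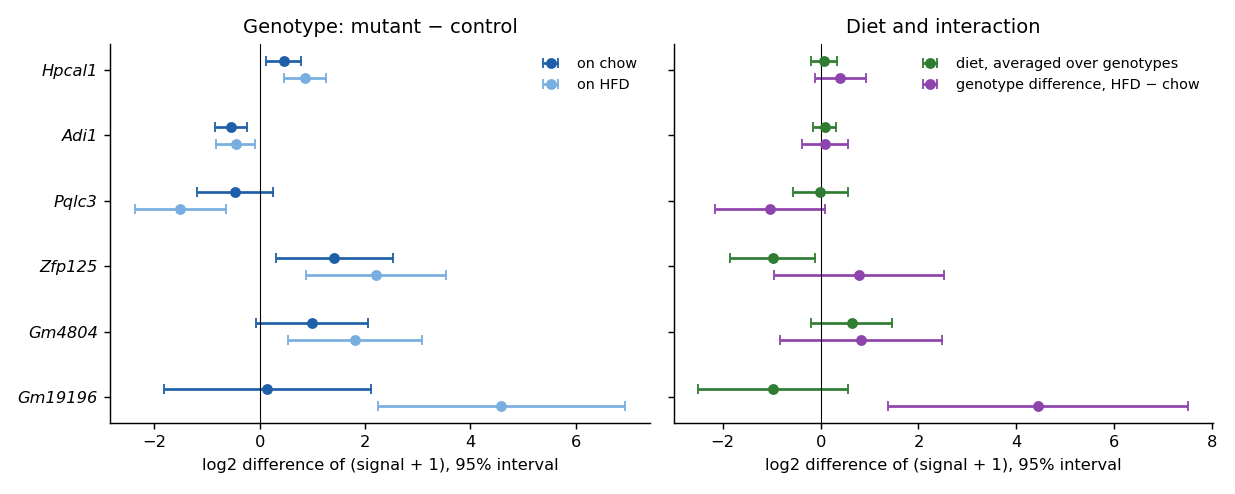
Log2 differences of signal + 1 with 95% intervals (x axis) for the 6 genes (y axis). The left panel gives mutant minus control on chow and on HFD, the right panel the diet difference averaged over genotypes and the genotype difference on HFD minus that on chow, where only Gm19196 has an interaction interval that leaves out 0.

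The wider families of the 3 coding genes were compared in the same fit. Of the 11 other genes of methionine salvage and polyamine synthesis, 0 had an adjusted p under 0.05 for genotype, and 1 had an unadjusted one, with a median log2 difference of -0.07 against 0.00 over all genes. That gene was Sms, spermine synthase, at -0.33 (SE 0.15). Odc1, ornithine decarboxylase, which lies 146 kb before Hpcal1, ran from 64.3 to 97.6 in controls and from 80.3 to 119 in mutants. Mtap and Mri1, which act upstream of Adi1 in the salvage pathway, differed by 0.08 (SE 0.24) and -0.07 (SE 0.39). Of 9 other neuronal calcium sensors, 0 had an unadjusted or adjusted p under 0.05, and the median was 0.11. Vsnl1, the visinin-like sensor that also lies on chromosome 12, differed by 0.20 (SE 0.21). Of 5 other PQ-loop genes, 0 passed at either level, and the median was 0.05.

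The genes whose profile was most like that of the 6 were found by correlation with their mean standardised profile over the 12 libraries, each gene turned to the sign of its genotype difference. This is a description, since the libraries share genotype and diet. The profile is also built from genes chosen on their genotype difference. Any gene that separates the genotypes, Rps7 among them, therefore correlates with it largely by that choice. Rps7 had the highest Pearson r, 0.87, followed by Cd14, a myeloid receptor gene (0.82), Trbc2 (0.81), Gm49388 (0.79) and Uba3 (0.78). The most negative were Pi4k2a (-0.84), Myo7a (-0.84), Dnaic2 (-0.83), Thrap3 (-0.82) and Gm7993 (-0.81). Rps7, which anchors the choice of the 6 genes, was the only one of these 10 genes on chromosome 12.

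Promoters of 2 of the 6 genes were at hand in RefSeq (GRCm38.p6), from 250 bases before to 50 after the start, and are shown because these coding genes differed in opposite directions. They were searched on both strands for the oestrogen response half-site GGTCA, for a pair of such half-sites facing each other 3 bases apart, for the cyclic AMP response element TGACGTCA, and for the E-box CACGTG. The half-site occurred in 40.5% of 32817 promoters, the pair in 0.0701%, the cyclic AMP element in 1.79% and the E-box in 7.15%. Hpcal1 (chr12:17690559-17690858, plus strand) held 1 half-site, in capitals, and Pqlc3 (chr12:17000069-17000368, minus strand) held none of the 4. Their GC contents were 68.3% and 67.7%, against a median of 52.7%. The Pqlc3 stretch follows the RefSeq start and lies wholly inside the gene bounds given above, which reach 17000408. It is therefore not upstream of the start in that other annotation.
Hpcal1 promoter: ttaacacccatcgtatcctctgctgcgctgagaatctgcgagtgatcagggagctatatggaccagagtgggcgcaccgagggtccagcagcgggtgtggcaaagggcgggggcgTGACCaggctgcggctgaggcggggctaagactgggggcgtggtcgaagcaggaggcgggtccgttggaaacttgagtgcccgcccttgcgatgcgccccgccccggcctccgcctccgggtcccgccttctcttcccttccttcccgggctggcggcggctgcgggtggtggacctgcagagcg
Pqlc3 promoter: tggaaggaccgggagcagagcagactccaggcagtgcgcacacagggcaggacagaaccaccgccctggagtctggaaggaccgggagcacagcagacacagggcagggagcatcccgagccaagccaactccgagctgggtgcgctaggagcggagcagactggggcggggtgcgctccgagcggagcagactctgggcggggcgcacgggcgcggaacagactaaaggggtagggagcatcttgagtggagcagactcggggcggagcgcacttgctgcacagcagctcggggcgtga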

How the data were processed

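The authors aligned reads to mm10 with Kallisto in gene mode and tested genes with Sleuth. Versions, annotation release and strand use were not given in the sources used here. The deposited signal, made by the authors with a scaling that was not stated and treated here as normalised for length and depth, covered 16640 genes in 12 libraries with column totals of 922172 to 1254999. Depth is unknown, so no counting interval is given. Columns were matched to labels by name, and 0 were left unmapped. No 2 libraries were identical. Values were transformed as log2(signal + 1), genes with at least 1 in at least 2 libraries were kept (15801), and limma 3.58.1 (R 4.3.3) was fitted with a trend and 1 mean per group, with two-sided p-values adjusted by Benjamini-Hochberg over all genes. The limma script was tested on simulated data. Positions came from GENCODE M21 (GRCm38), where 16633 of 16640 genes matched, and shared 31-base words from its transcripts, for partners sharing at least 15. The members and lists were chosen with earlier results of these data known, and the search for copies after values were seen. Named genes were the 6 members, Rps7, Esr1, Nkx2-1, the nearest tested neighbours, genes within 1 Mb of Rps7, the 5 most and 5 least similar profiles and list members. Copies, and Rrm2 and Grhl1, were named after their values were seen. Alternatives were another pseudocount, filter, scaling, model and each library left out. After values were seen, sums with the gene in the table that shares most words and a replicate block were added.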

Additional observations from a re-analysis of the deposited data

Results flagged for a closer look

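Library values of the 6 genes were compared with the rest of their group by Dixon's ratio in 18 groups, and 3 libraries stood far from the others. Chance gives about 1 in 20 groups if values are normal and groups separate. That rate is only a guide here, since the mutant chow libraries are also part of the groups of all mutants. Hpcal1 was 61.3 in control HFD replicate 2, below the next control at 71.6. Gm4804 was 0.360 in control HFD replicate 1, where the other 4 controls were at 0, so any value above 0 would have been flagged. Gm4804 was 7.93 in mutant HFD replicate 3, above the next mutant at 2.28. Without that library its log2 genotype difference was 1.12, against 1.40 with it.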

How the results depend on the processing

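Over 20 other settings, the genotype difference averaged over the diets had the same sign in 118 of 118 refits of the 6 genes. The choice of genes largely fixes this, and these refits do not include the sums with another gene given below. A pseudocount of 0.1 raised the genotype difference from 1.81 to 3.32 for Zfp125 and from 1.40 to 3.40 for Gm4804. Leaving out each library in turn gave 1 to 2 genes called for genotype averaged over the diets, 1 to 4 on chow, 1 to 2 on HFD and 0 to 1 for the interaction. Without mutant chow replicate 3 the second gene called, averaged over the diets and on HFD, was Gm19196. As Gm19196 was chosen on this contrast and is at 0 in that library, its call is not a test of it. Without control HFD replicate 2 the second gene, averaged over the diets only, was Ttr. Fitting only the groups compared gave 1 gene on chow and 2 on HFD, and a pseudocount of 0.1 gave 2 on HFD and 1 for the interaction. The chow count was 1 without control chow replicate 1, without control chow replicate 2 or without mutant chow replicate 4. The diet difference of Pqlc3, -0.01, was 0.0589 under quantile normalisation, 0.0474 with rescaled columns, 0.108 with array weights and -0.18 to 0.10 with each library left out. The interaction of Adi1 was -0.0805 with rescaled columns and -0.00676 to 0.187 with each library left out. An alternative added after seeing the data, each gene summed with the gene in the table that shares most words, gave -0.0471 for the interaction of Adi1, -0.19 for that of Zfp125 and, for the genotype difference, -0.0103 for Rps7 and -0.0186 for Gm4804. The causes were not tested, except that another gene's signal was added by construction. Genes tested for diet or interaction among the 6 kept an adjusted p of at least 0.324 in limma under every alternative but 1. The exception is the replicate block described below, for which only counts of calls were taken. Count models were not run, since the values are not counts. The sample labels carry no replicate numbers, and the serial numbers in the deposited column names are not said to pair libraries. Same-numbered libraries of different groups had deviations correlated at a median r of 0.0037 (-0.18 to 0.31 over 15 pairs). A replicate block on that number, also added after seeing the data, gave 1 gene called on chow against 3 and changed no other count of calls. Depth is unknown, so its effect on the low genes was not measured.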
